A study of Mus musculus with 12 samples.

Results

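Among the mouse protein-coding genes of GENCODE release M21, 1815 form the group described here: genes that face a convergent neighbour and were counted in these libraries. A convergent neighbour is a protein-coding gene on the opposite strand whose 3' end points at the gene's own 3' end, tail to tail. The rule asked for no overlap with any opposite-strand gene, at most 5 kb between the facing 3' ends, and a mean of at least 1 CPM (a count scaled to library size) over 12 libraries. Of 21974 protein-coding features in the count tables, 13930 overlapped no opposite-strand gene and 2318 of those had such a neighbour, of which 503 fell under 1 CPM. The 1815 members faced 1785 distinct neighbours, and 30 neighbours were each shared by a pair of members. Both genes were members in 543 pairs, which hold 1086 of the members, so members are not independent of each other.

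The RNA came from mixed cortex and hippocampus of male C57BL6JL mice aged 3 to 5 months. Naive animals were compared with animals taken 90 min after maximal electroconvulsive stimulation (MECS), an 85 mA current of 1 s through ear clips that produced convulsions. All tissue was homogenized and irradiated with ultraviolet light at 400 mJ/cm2, which fixes proteins to the RNA they touch. Naive input and MECS input are RNA of the whole lysate, and naive U1 and MECS U1 are RNA recovered with an antibody against U1-70K, a component of U1 snRNP, the small nuclear RNA and protein particle that reads 5' splice sites, with 3 libraries in each of the 4 groups. No control precipitate was analysed here, so binding to U1 and other differences in recovery cannot be told apart, and since the labels do not say how animals were assigned to libraries, p-values measure the spread between these samples only.

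Transcription by RNA polymerase II does not stop at the annotated end of a gene. The nascent RNA is cleaved and polyadenylated a short way after a hexamer, most often AATAAA, and the polymerase then runs on before it is released. Where genes converge, RNA that continues past one gene's end is complementary to the transcript of the other. U1 snRNP pairs with 5' splice sites and also protects nascent RNA from premature cleavage at hexamers within introns, an activity known as telescripting, and readthrough past gene ends is a known response of cells to several kinds of stress.

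The ends of 6 convergent pairs are shown because the highest levels and the changes below lie beside them. Each line is the last 30 bases of the annotated transcript that ends farthest downstream, read 5' to 3' on that gene's own strand, from the GENCODE M21 transcripts (GRCm38), with the hexamer AATAAA or ATTAAA in capitals where one is present.
Pter at chr2:13003426-13003455, plus strand: taccaaagAATAAAtttctctgactgttca
C1ql3 at chr2:13003457-13003486, minus strand: atttctccaatagaatacatttagactctc
Lrrc26 at chr2:25291151-25291180, plus strand: taggcgtcaacaatagacaaaacccggaaa
Grin1 at chr2:25291181-25291210, minus strand: agtggtgatgcctaaaggaatgtcagaaaa
Vsig2 at chr9:37544176-37544205, plus strand: taataATTAAAgcctaaaccatgccacctc
Nrgn at chr9:37544492-37544521, minus strand: gtgaatAATAAAgaggaatgtctaagtgta
Fam187a at chr11:102886702-102886731, plus strand: gcgacagggtgatgagcaagtctgttagtt
Gfap at chr11:102887336-102887365, minus strand: agaAATAAAgacatgtgccatagacttcca
Hipk4 at chr7:27531146-27531175, plus strand: ctgtgtatttcAATAAAtaactgttccaaa
Pld3 at chr7:27532000-27532029, minus strand: taattgtctgtatagcctgtgcttaactga
Klhl34 at chrX:157820340-157820369, plus strand: ggagaggtgccagatttagtgttggattga
Cnksr2 at chrX:157821436-157821465, minus strand: gtaaactgaagtcaAATAAAtccagctctt

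The ends of Lrrc26 and Grin1 lie 1 base apart, and neither window holds a hexamer. The ends of Pter and C1ql3 lie 2 bases apart, with a hexamer in the Pter window only. Over 1813 members with a transcript sequence, 53.1% of the 30-base windows held AATAAA and 65.6% held AATAAA or ATTAAA, searched on the transcript's strand only and counted once where both were present. The share with either hexamer was 65.0% for the neighbours, 62.3% for all 21835 protein-coding genes with a sequence and 57.0% for the candidates under 1 CPM. A match is only a description of these letters, and the gap between the genes was not read.

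Each library held 704432 to 1962312 counts in genes, which were 1.42 to 1.84% of its listed reads, while 88.3 to 91.3% of listed reads lay in no feature. Whether reads were counted by strand is not stated in any source read, so reads of a member's own transcript, of RNA running on from the neighbour and of other RNA of the region cannot be told apart. Counts of a feature are therefore given under its name without assigning them to its transcript. Features of the labelled tissue's defining markers were low or uneven: Gfap, the astrocyte filament gene, had 15 to 49 counts per library, and the 4 haemoglobin features and the microglial Itgam had none in any library. Members took 4.72 to 5.30% of the gene counts of a library, and 275 of them overlap another gene on their own strand, with which reads could be shared.

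Features were counted more often the closer their convergent neighbour lay. The mean level reached 1 CPM in 85.7% of the 545 candidates with a gap under 0.5 kb, in 81.6% of 310 at 0.5 to 1 kb, in 80.8% of 490 at 1 to 2 kb and in 71.8% of 973 at 2 to 5 kb. It did so in 61.3% of 997 features at 5 to 10 kb and in 37.2% of 10615 with a longer gap or no convergent neighbour. The median depth, as counts summed over 12 libraries per kb of exon, went from 73.9 under 0.5 kb through 43.7, 39.5, 17.3 and 7.75 to 1.73 in the last class. Over the 2318 candidates the rank correlation of distance with CPM per kb of exon was -0.28, a description over features of the same libraries. The median exon length differed little between these classes, from 2935 to 3426 bases.

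The same order held in each of the 4 groups. Under 0.5 kb the share of features at 1 CPM in a library was 82.4% ± 1.77 (SD, n = 3) in naive input, 81.0% ± 1.81 in MECS input, 85.0% ± 1.25 in naive U1 and 83.7% ± 1.18 in MECS U1. Beyond 10 kb it was 34.1% ± 3.99, 31.0% ± 1.85, 37.4% ± 2.65 and 33.4% ± 1.73 in the same order. The share within 5 kb exceeded that beyond 10 kb by 40.8 percentage points ± 1.35 (SD, 12 libraries), in 12 of 12 libraries. The classes hold the same genes in every library, and input and U1 libraries with 1 title number may share a lysate. The 12 values are therefore not independent and no test is given.

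The kind of neighbour was compared next. Features with only a head to head neighbour within 5 kb, whose starts face each other, reached 1 CPM in 46.2% of 839 cases. Those with only a same-strand gene downstream did so in 52.6% of 1339, those with none of these neighbours in 36.0% of 9220, and those with only a convergent neighbour in 77.7% of 1797. Within libraries, features with a convergent neighbour exceeded those with a head to head and no convergent neighbour by 28.2 points ± 2.52 (SD, 12 libraries), in 12 of 12 libraries, again as a description with no test. How often a feature's own gene is active in brain was not matched between the classes.

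**Figure D1:**
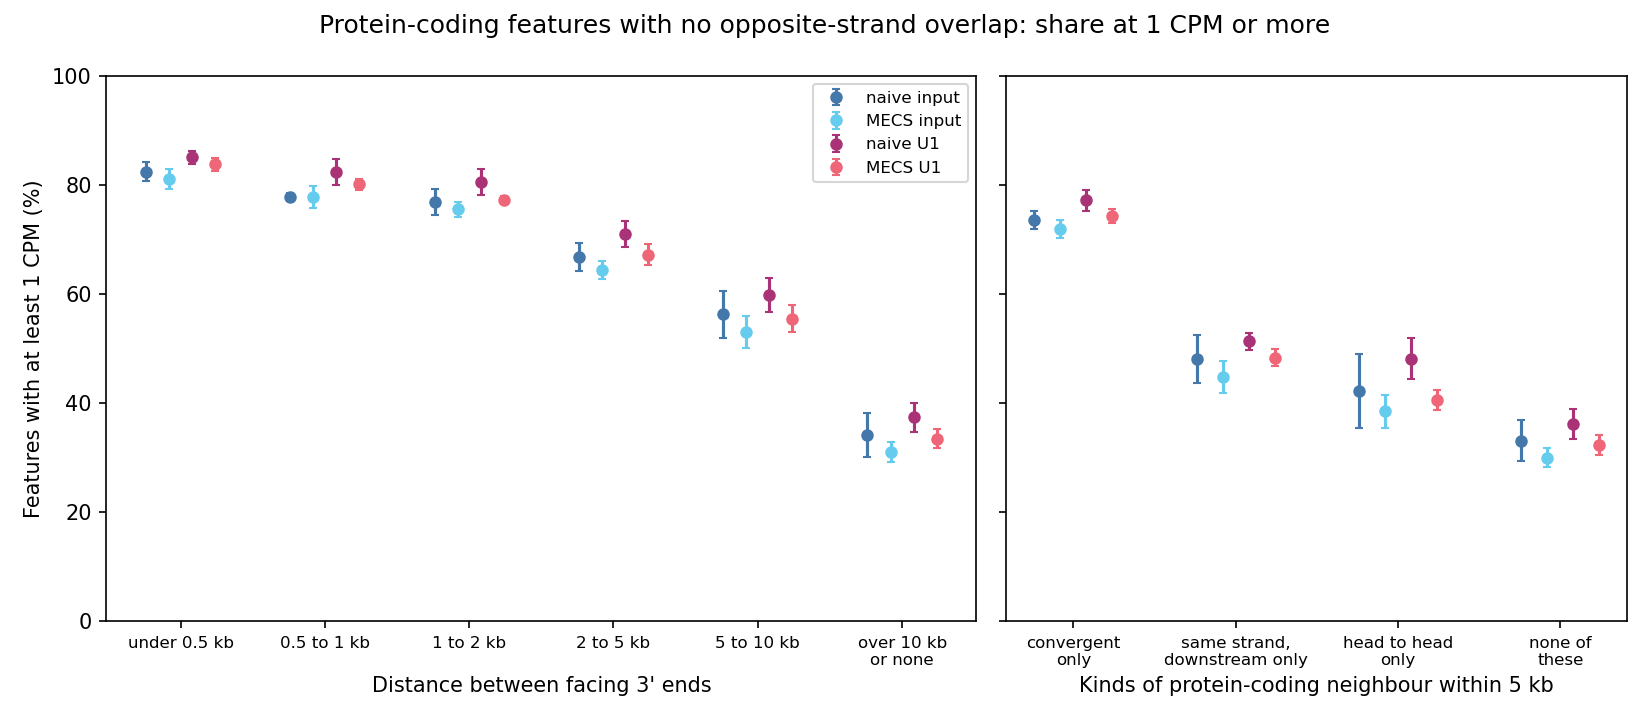
Share of protein-coding features with at least 1 CPM in a library, as the mean and SD of 3 libraries per group, by distance between facing 3' ends (left) and by the kind of protein-coding neighbour within 5 kb (right). In all 4 groups the shares fall from left to right in the left panel, from 81.0 to 85.0% under 0.5 kb to 31.0 to 37.4% beyond 10 kb, and convergent-only features lie above the other kinds.

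Where 1 neighbour served a pair of members, the nearer member was the higher per kb of exon in 26 of 30 cases. Both members had passed the rule of 1 CPM, and no share for other same-strand pairs of genes is given. This is a description, and an effect of distance was not tested. Lrrc26 itself lies in the gap between Tmem210 and Grin1, and Fam187a and Ccdc103 overlap each other. Beside Grin1, which encodes the obligatory subunit of the NMDA receptor, Lrrc26 at 1 base had 175 CPM per kb of exon and Tmem210 at 1992 bases had 119.9. Beside Gfap, Fam187a at 605 bases had 17.8 CPM per kb of exon and Ccdc103 at 2120 bases had 9.05. The members beside Smarcc2, Ash1l and Espn were among those in the other order. Myl6, a myosin light chain 378 bases from Smarcc2, had 18.1 CPM per kb of exon against 33.3 for Myl6b at 3675 bases.

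Levels of members ran from 1.00 to 1462 CPM with a median of 12.8. A total of 1041 members had at least 10 CPM and 90 had at least 100 CPM. The median level of members was 19.0 CPM under 0.5 kb, 13.7 at 0.5 to 1 kb, 13.6 at 1 to 2 kb and 7.94 at 2 to 5 kb. The 3 highest members held 6.80% of all CPM in members, so sums over the members lean on few features.

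The highest was Hipk4, a protein kinase gene 825 bases from Pld3, which encodes an endolysosomal protein of the phospholipase D family. Hipk4 had 2282, 1867 and 2019 CPM in naive input and 1807, 1471 and 1385 in MECS input, while the feature of Pld3 itself averaged 9.48 CPM. Klhl34, a kelch-family gene 1067 bases from Cnksr2, averaged 1297 CPM, and the feature of Cnksr2, a postsynaptic scaffold gene, averaged 10.8 CPM. Per kb of exon Klhl34 was the highest named member at 670.2 CPM, ahead of Hipk4 at 401 and Lrrc26 at 175. The feature 9330182L06Rik, 3716 bases from the glutamate receptor gene Grm3, averaged 665 CPM. It was named after its values were seen.

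Has1, a hyaluronan synthase, averaged 307 CPM beside Spaca6, and Muc6, a gastric mucin, averaged 274 CPM at 445 bases from Ap2a2, a subunit of the clathrin adaptor. Il4, a cytokine of T helper cells, averaged 128 CPM at 1015 bases from Kif3a, a kinesin motor. Nfe2l3, a transcription factor, averaged 325 CPM at 2164 bases from Hnrnpa2b1, an RNA-binding protein. Orc3, of the origin recognition complex, averaged 275 CPM at 3888 bases from Akirin2, and Dgat1, an enzyme of triglyceride synthesis, averaged 265 CPM at 102 bases from Hsf1, the heat shock transcription factor. Levels in CPM are not per length and do not rank these genes by RNA abundance.

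The members of a pair often differed in level, though no ratio for other pairs of genes is given. In the 543 pairs the higher member exceeded the lower by a median of 3.71 times in CPM per kb of exon, by at least 10 times in 126 pairs and by less than 2 times in 149. Hipk4 stood at 401 CPM per kb of exon against 3.24 for Pld3. Klhl34 stood at 670.2 against 1.16 for Cnksr2. Vsig2, an immunoglobulin-family membrane protein, and Nrgn, the neuronal calmodulin-binding protein neurogranin, were high together at 125 and 99.0 CPM per kb of exon. Over all members, 956 of 1815 had more CPM than the feature of their own neighbour. Each of the 543 pairs adds a single gene to that count by construction. Outside these pairs the rule of 1 CPM held for the member but not always for its neighbour. The count is therefore only a description.

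**Figure D2:**
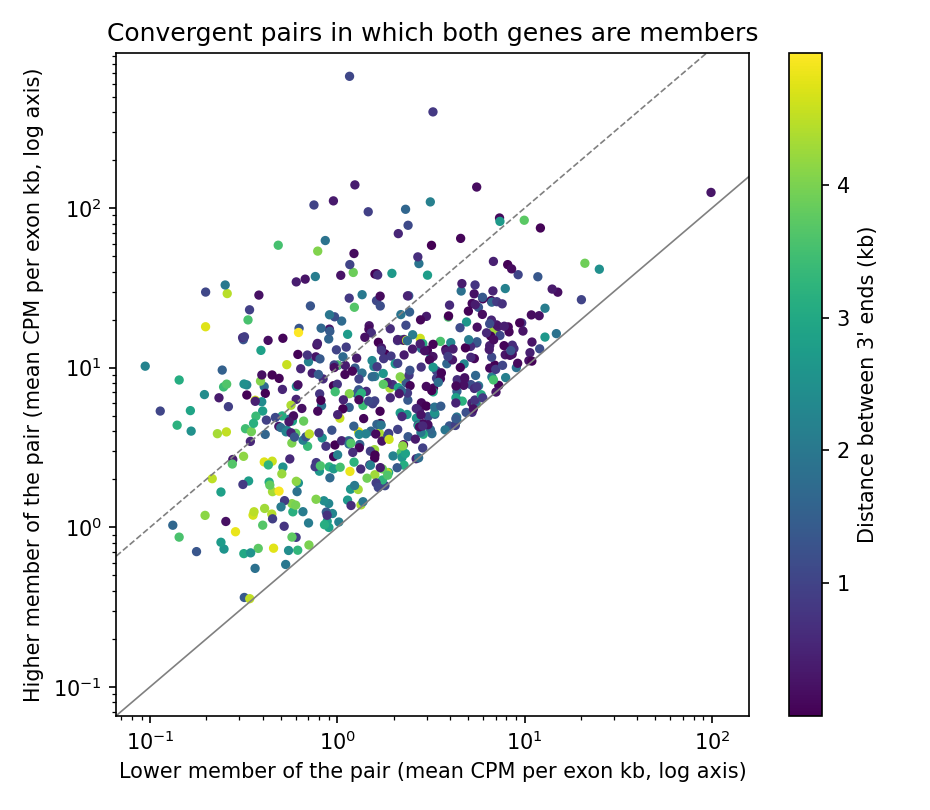
Mean level over 12 libraries of both genes in the 543 convergent pairs in which both are members, in CPM per kb of exon on log axes, with the lower gene on the horizontal axis and colour giving the distance between 3' ends. Points on the solid line have equal levels and 126 pairs lie on or above the dashed line, where the higher gene is 10 times the lower. The uppermost points are Klhl34 with Cnksr2 and Hipk4 with Pld3.

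RNA recovered with the U1-70K antibody was compared with input. In naive brain 47 members were higher with U1 and 31 lower, of 1153 tested (6.76%), and over all 10918 features tested 10.5% passed, 4.19% higher and 6.26% lower. In MECS brain 29 members were higher and 30 lower of 1144 tested (5.16%), against 8.51% of 10791 features, 3.3% higher and 5.21% lower. These calls are edgeR quasi-likelihood tests at an adjusted p under 0.05, with Benjamini-Hochberg adjustment over all features tested. The median log2 fold change was 0.11 in tested members and 0.03 in all features in naive brain, and 0.04 and 0.02 in MECS brain. The naive and MECS comparisons use separate libraries. In both, 18 members were higher, which is 38.3% of the naive and 62.1% of the MECS calls. A further 20 were lower in both, 64.5% and 66.7%. The overlap over all features is not given, so these shares are not shown to be particular to members. With the shared title number as a replicate block, 96 members passed in MECS brain, 52 of them higher, and the features called over the whole table went from 918 to 1488. Without naive input 1 the members called in naive brain fell to 45, and all features called from 1141 to 711. Without MECS U1 1 the members called in MECS brain fell to 39, and all features called from 918 to 613.

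The largest fall was in Pter, a gene related to bacterial phosphotriesterases, whose end lies 2 bases from that of C1ql3, a gene for a secreted synaptic protein. Pter had 949, 793 and 509.9 CPM in naive input and 78.1, 142 and 52.9 in naive U1, and 859, 601 and 865 in MECS input and 163, 137 and 148 in MECS U1. Every input library stood above every U1 library. The log2 fold change was -3.0 (SE 0.24, edgeR adjusted p = 1.83e-10) in naive and -2.36 (SE 0.16, adjusted p = 8.17e-09) in MECS brain. The feature of C1ql3 itself had 16.2 to 32.8 CPM in naive input and 17.5 to 23.3 in naive U1, which overlap, with a log2 fold change of -0.31 (SE 0.34, edgeR adjusted p = 0.684). A pair of predicted features on the strand of Pter inside C1ql3 summed to 554 CPM ± 102 (SD, n = 3) in naive input and 192 ± 66.6 in naive U1, and to 484 ± 87.2 and 213 ± 28.9 in MECS brain.

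Klhl34 fell as well. It had 2392, 1730.1 and 1805 CPM in naive input against 576, 579.6 and 670.5 in naive U1, and 2303, 1489.6 and 1943 against 695, 587 and 790.1 in MECS brain, with no overlap in either state. The log2 fold changes were -1.68 (SE 0.17, edgeR adjusted p = 1.05e-08) and -1.45 (SE 0.16, adjusted p = 1.74e-06). Hipk4 fell by less, from 2056 ± 209.9 CPM (SD, n = 3) to 1199.5 ± 33.8 in naive and from 1555 ± 223 to 1039 ± 68.1 in MECS brain, log2 fold changes of -0.76 (SE 0.16, edgeR adjusted p = 0.001) and -0.57 (SE 0.13, adjusted p = 0.0076). The call of Hipk4 in MECS brain was lost without MECS U1 1 (adjusted p = 0.0802).

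Trappc13, of a vesicle-tethering complex, lies 414 bases from Sgtb, a neuronal co-chaperone gene. It had 160.3, 101 and 80.9 CPM in naive input and 36.1, 37.5 and 28.6 in naive U1, and the MECS libraries did not overlap either, with log2 fold changes of -1.72 (SE 0.24) and -1.53 (SE 0.19). Slc17a7, the vesicular glutamate transporter of cortical excitatory neurons, lies 207 bases from Gfy and fell from 68.2 ± 10.4 CPM to 25.4 ± 12.3 in naive and from 55.9 ± 17.5 to 17.8 ± 5.62 in MECS brain (SD, n = 3). Il4 fell in both states, by 0.80 and 0.77 on the log2 scale. The mitochondrial mt-Nd4, 2008 bases from mt-Nd6 with other mitochondrial genes in the gap, fell by 2.11 and 2.31. Mitochondrial genes share polycistronic transcripts, so its 3' end is not one of RNA polymerase II.

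Nat8l, the neuronal synthase of N-acetylaspartate, Clstn1, a calsyntenin of the synapse, and Slc30a2, a zinc transporter, were also called lower in both states. Their log2 fold changes were -1.54, -1.24 and -1.22 in naive brain and -1.08, -1.0 and -0.72 after MECS. The MECS call of Nat8l was lost without MECS input 1 (edgeR adjusted p = 0.0841). That of Clstn1 was lost without MECS input 1 (0.125), MECS U1 2 (0.0527) or MECS U1 3 (0.058), and its naive call without naive input 2 (0.0699). That of Slc30a2 was lost in DESeq2 (0.0738) and without MECS input 1 (0.069), MECS input 3 (0.078), MECS U1 1 (0.151) or MECS U1 3 (0.0575). Adcy1, an adenylyl cyclase of neurons, was called in MECS brain at -1.67 (SE 0.30, edgeR adjusted p = 0.000679), and stood at -0.85 (SE 0.32, adjusted p = 0.101) in naive brain. That difference between states did not pass the test of the interaction (log2 -0.81, SE 0.47, adjusted p = 0.997).

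**Figure D3:**
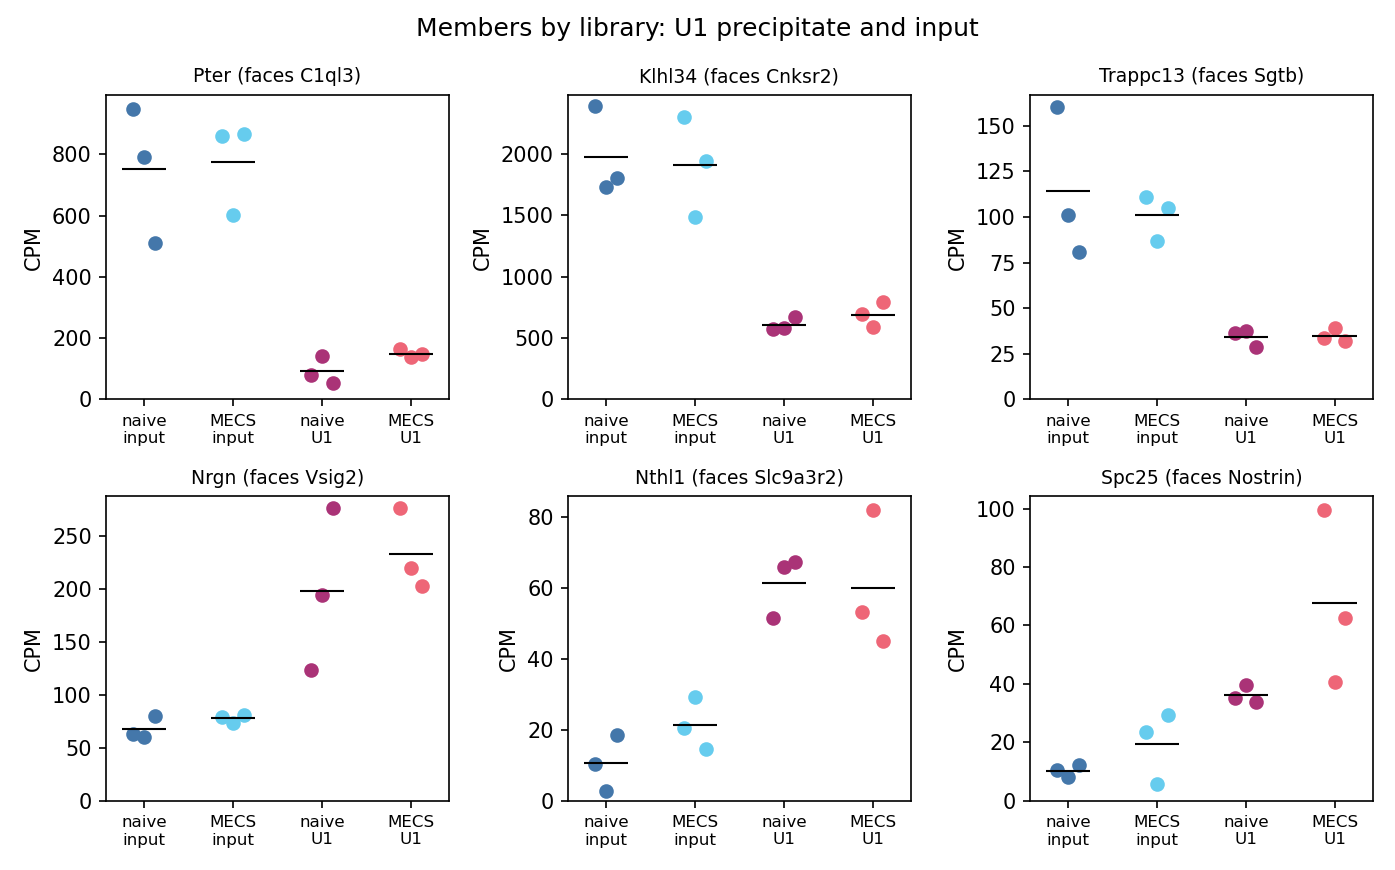
CPM of 6 members in each of the 12 libraries, with points for libraries and a line at the mean of each group of 3; the neighbour each member faces is given in brackets. Pter, Klhl34 and Trappc13 are lower in every U1 library than in every input library, and Nrgn, Nthl1 and Spc25 are higher in U1 than in the input of the same state.

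Nrgn was higher with U1 in both states. It had 62.6, 60.1 and 79.3 CPM in naive input and 124, 194 and 276 in naive U1, and 78.4, 73.3 and 80.8 in MECS input and 276, 219.7 and 202 in MECS U1. All 6 U1 libraries stood above all 6 input libraries. The log2 fold changes were 1.57 (SE 0.22, edgeR adjusted p = 3.14e-06) and 1.6 (SE 0.17, adjusted p = 9.85e-07). Vsig2, 287 bases away on the opposite strand, had 271 CPM ± 46.5 (SD, n = 3) in naive input and 238 ± 33.0 in naive U1, and its log2 values of -0.17 (SE 0.16, adjusted p = 0.63) and -0.38 (SE 0.14, adjusted p = 0.0999) did not pass.

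Nthl1, a DNA glycosylase of base excision repair, lies 449 bases from Slc9a3r2, a scaffold for membrane transporters. It had 10.3, 2.73 and 18.5 CPM in naive input against 51.3, 65.8 and 67.2 in naive U1, and 20.3, 29.3 and 14.6 against 53.2, 81.8 and 45.0 in MECS brain. Its groups did not overlap in either state, with log2 fold changes of 2.45 (SE 0.33, edgeR adjusted p = 2.08e-06) and 1.49 (SE 0.28, adjusted p = 0.000865). Ttpal, 4259 bases from Serinc3, rose from 169 ± 7.30 to 282 ± 45.1 CPM in naive and from 202 ± 10.1 to 319 ± 13.4 in MECS brain (SD, n = 3). Erg28, of sterol synthesis, rose by 1.95 and 1.55 on the log2 scale at 1863 bases from Flvcr2, a transporter of brain endothelium.

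Spc25, a kinetochore gene, lies 4565 bases from Nostrin, a regulator of endothelial nitric oxide synthase, and had 10.3, 8.20 and 12.3 CPM in naive input against 35.0, 39.6 and 33.6 in naive U1, a log2 fold change of 1.80 (SE 0.34, edgeR adjusted p = 0.000248). Its rise of 1.81 in MECS brain did not pass in DESeq2 (adjusted p = 0.123). Prr29 faces Icam2 and Clec9a faces Clec1a, both with endothelial expression, and rose by 2.05 and 1.65 in MECS brain. In naive brain Prr29 stood at 1.62 (edgeR adjusted p = 0.0402), a call lost in DESeq2 (0.192) and without naive input 1 (0.287), naive input 3 (0.0562), naive U1 2 (0.0808) or naive U1 3 (0.241). Clec9a stood there at 1.14 (adjusted p = 0.0355), lost in DESeq2 (0.146), with the replicate block (0.0678), with no filter (0.0581) and without naive input 1 (0.133), naive input 3 (0.145) or naive U1 3 (0.283). Ldlrad2, 1453 bases from the basement membrane gene Hspg2, was called in naive brain at 2.29 (SE 0.56, adjusted p = 0.00503; 0.052 without naive U1 3). Etnk2, an ethanolamine kinase facing Sox13, and Sytl1, a synaptotagmin-like gene 161 bases from Map3k6, were called in both states, at 2.14 and 2.17 and at 2.09 and 1.47. Whether members beside genes of one cell type were called more often was not tested.

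The cell type lists were read from the features' own symbols. The summed level of 22 neuronal marker features ranged from 1627 to 2644 CPM over the input libraries and from 642 to 1109 over the U1 libraries, with 0 higher and 4 lower of 13 tested in each state. Most of that sum was Nefm, a neurofilament gene that averaged 1102 CPM and overlaps opposite-strand genes. Of 10 astrocyte marker features, 2 of 6 tested were lower in each state, with sums of 251 to 444 CPM in input and 136 to 175 in U1. Of 13 oligodendrocyte features, 3 of 8 tested were lower in each state, with sums of 567 to 809 CPM in input and 351 to 435 in U1. The 10 endothelial features summed to 221 to 290.4 CPM in input and 279 to 378 in U1, with Cldn5, a defining marker and itself a member, at 2.82 CPM on average. The 12 features of smooth muscle and pericytes summed to 426 to 567 CPM in input and 492 to 625 in U1. Both vessel lists thus overlap between input and U1 over all libraries, though within each state the endothelial sums did not. By edgeR, 1 of 4 endothelial features tested was higher in each state. Of smooth muscle and pericyte features, 3 of 8 tested were higher in naive and 1 of 7 in MECS brain. No feature of either vessel list was called lower. None of 5 microglial features tested was called by edgeR, with sums of 341 to 416 CPM in input and 313 to 340.5 in U1. The part of these differences in the members' values was not tested.

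**Figure D4:**
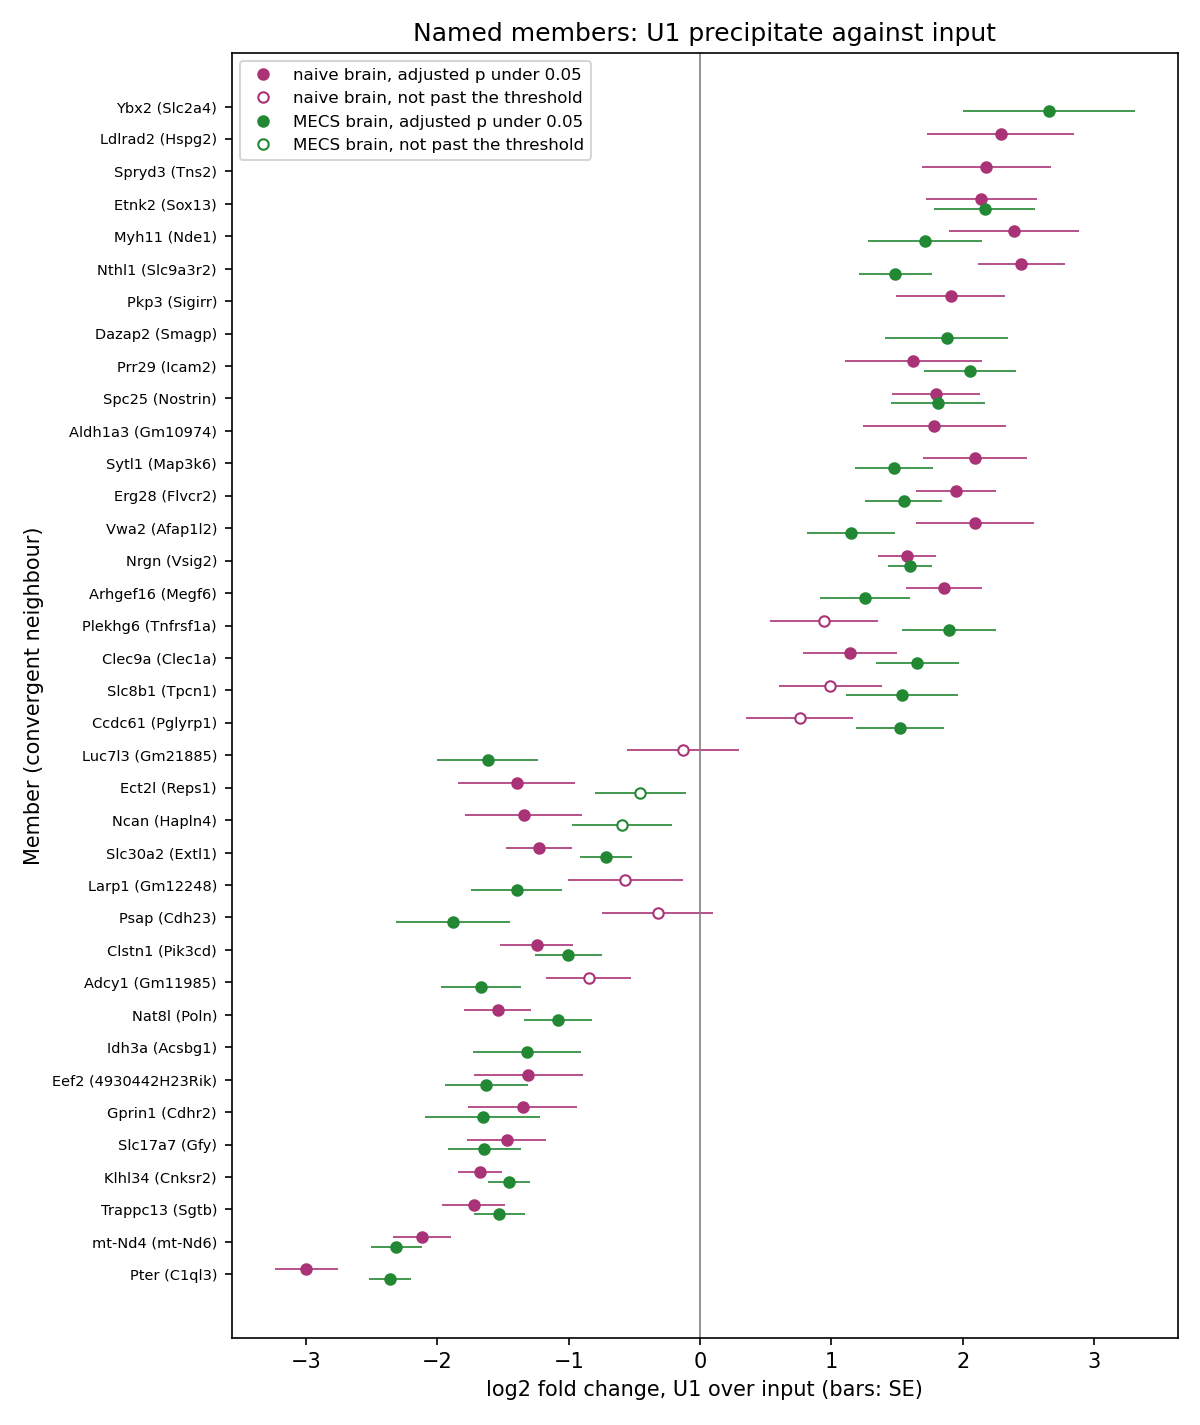
log2 fold change of U1 over input with its SE for the named members with the largest changes, naive brain and MECS brain side by side, with each member's convergent neighbour in brackets. Filled points passed an adjusted p of 0.05 and open points did not. A missing point was not tested in that state, and Pter and mt-Nd4 lie farthest to the left in both states. Of all named calls, 20 of 31 in naive and 17 of 35 in MECS brain passed in every alternative analysis. Idh3a in MECS brain was lost in 10 of 14 alternatives, and Ncan and Aldh1a3 in naive brain in 8 of 14.

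By distance, 8.77% of the 365 tested members under 0.5 kb were called in naive brain (21 higher, 11 lower), 2.92% of 171 at 0.5 to 1 kb, 6.84% of 263 at 1 to 2 kb and 6.50% of 354 at 2 to 5 kb. In MECS brain the shares were 6.42%, 3.49%, 5.12% and 4.72% in the same order. Whether these shares differ was not tested. With both directions pooled, each lies below the background of its comparison given above. Shares of higher and of lower calls by distance were not set against that background. In pairs with both genes tested, 2 of 233 had both genes called in naive brain, each in 1 direction, and 26 had 1 gene called. In MECS brain 0 of 229 pairs had both called by edgeR and 31 had 1. Nrgn beside Vsig2 and Slc17a7 beside Gfy were pairs with 1 gene called. Whether the genes of a pair moved together or differed from each other was not tested. No expected number of such pairs is given.

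Stimulation was compared in each kind of RNA. In input 3 members were higher and none lower after MECS of 1091 tested (0.275%), against 0.606% of 10402 features, 0.51% higher and 0.0961% lower. In U1 RNA 2 members were higher and none lower of 1174 tested (0.170%), against 0.386% of 11141 features, 0.332% higher and 0.0539% lower. At an unadjusted p under 0.05 in edgeR, 64 members (5.87%) passed in input and 82 (6.98%) in U1, against 9.66% and 10.5% of all features. Leaving out 1 library gave 1 to 4 members and 19 to 114 features in input. In U1 it gave 0 to 8 members and 13 to 225 features. The lowest counts of features came without naive input 1 and without MECS U1 1, and the highest without MECS input 1 and without naive U1 2. Between naive and MECS tissue, fewer cells of a type and less RNA per cell cannot be told apart. DESeq2 called 1 member in each, Hipk4 as lower in input and Sytl1 as higher in U1, and gave no adjusted p for the members that edgeR called. The median log2 fold change of members was -0.00 in input and -0.06 in U1, and that of all features -0.02 in both.

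A pair of the called members face Gfap, which encodes the glial fibrillary acidic protein and is known to be induced by seizures. Ccdc103, a gene of ciliary motility 2120 bases from Gfap, had 4.29, 4.10 and 3.08 CPM in naive input and 26.4, 15.6 and 29.2 in MECS input. In U1 RNA it had 4.66, 5.65 and 16.8 CPM in naive and 34.2, 28.0 and 33.2 in MECS libraries, again without overlap. The log2 fold changes were 2.57 (SE 0.47, edgeR adjusted p = 0.0039) and 1.77 (SE 0.38, adjusted p = 0.0362). Fam187a, 605 bases from Gfap, had 4.29, 10.9 and 9.24 CPM in naive input and 51.2, 11 and 29.2 in MECS input, so that the lowest MECS library stood just above the highest naive one. In U1 RNA it had 9.33, 17.0 and 30.2 CPM in naive and 70.7, 48.3 and 41.9 in MECS libraries, with log2 fold changes of 1.90 (SE 0.45, edgeR adjusted p = 0.0378) in input and 1.42 (SE 0.31, adjusted p = 0.0366) in U1. The feature of Gfap itself had 13.7, 28.7 and 26.2 CPM in naive input and 22.6, 17.4 and 14.6 in MECS input, which overlap (log2 -0.35, SE 0.35, adjusted p = 0.8).

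Fam187a and Ccdc103 overlap each other on the plus strand, so their counts may include the same RNA and are not separate observations. At the depth of these libraries their naive input levels stand for few counts, so their fold changes in input start near the floor. The call of Ccdc103 in input was lost without naive input 3 (adjusted p = 0.0522), and in U1 without MECS U1 1 (0.212), MECS U1 3 (0.0876), naive U1 1 (0.205) or naive U1 2 (0.0605). The call of Fam187a in input was lost without any 1 of MECS input 1 (adjusted p = 0.285), MECS input 3 (0.0898), naive input 1 (0.271), naive input 2 (0.0577) or naive input 3 (0.128). In U1 it was lost without MECS U1 1 (0.383), naive U1 1 (0.236) or naive U1 2 (0.0571).

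Aagab, which encodes a chaperone of clathrin adaptor assembly, lies 2179 bases from Smad3, a transcription factor of transforming growth factor beta signalling. It had 21.4, 19.1 and 27.7 CPM in naive input and 51.2, 60.5 and 64.2 in MECS input. All MECS libraries lay above all naive ones, with a log2 fold change of 1.27 (SE 0.25, edgeR adjusted p = 0.00863). In U1 RNA the naive libraries at 35.0, 32.4 and 41.2 CPM also lay below the MECS libraries at 52.4, 52.2 and 80.1, but the log2 value of 0.73 (SE 0.23, adjusted p = 0.209) did not pass. Smad3, a member of the same pair, had 161 CPM ± 17.1 (SD, n = 3) in naive and 156 ± 29.5 in MECS input (log2 -0.11, SE 0.18, adjusted p = 0.893). In U1 RNA Smad3 had 176, 227 and 224 CPM in naive and 163, 172 and 170 in MECS libraries, without overlap. Its log2 value there of -0.37 (SE 0.15, edgeR adjusted p = 0.348) did not pass. The call of Aagab was lost without MECS input 3 (adjusted p = 0.0575), naive input 1 (0.0847) or naive input 2 (0.0523).

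**Figure D5:**
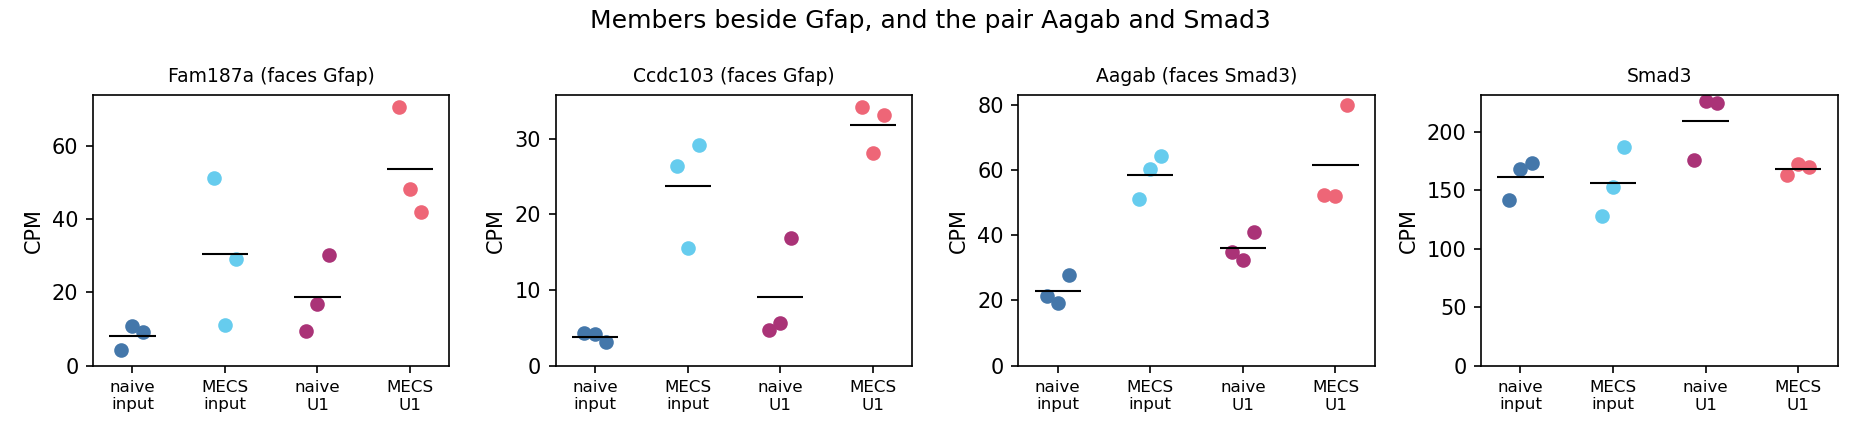
CPM in each library, with points for libraries and a line at the mean of 3, for the members beside Gfap that were higher after MECS, and for Aagab and Smad3. In input and in U1 RNA the MECS libraries of Fam187a, Ccdc103 and Aagab lie above the naive ones. Those of Smad3 overlap the naive ones in input and lie below them in U1 RNA.

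An interaction fitted to the 12 libraries, which asks whether MECS changed the U1 difference from input, called 0 of 1280 members and 0% of 12184 features in edgeR, with a smallest adjusted p of 0.997. At an unadjusted p under 0.05 there were 35 members (2.73%) and 383 features (3.14%), and DESeq2 called 0 members. Calls in 1 state only are thus not shown to differ between states. For Nthl1 the interaction was -0.95 (SE 0.46, adjusted p = 0.997), and for Pter it was 0.64 (SE 0.31, adjusted p = 0.997).

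The summed level of all members was 50492 CPM ± 1957 (SD, n = 3) in naive input, 52325 ± 587 in MECS input, 48818 ± 2751 in naive U1 and 49704 ± 814 in MECS U1. Exact 2-sided permutation tests gave p = 0.3 for the MECS effect in input and 0.9 for that in U1. For U1 against input they gave 0.5 in naive brain and 0.1 after MECS. The smallest p that 3 against 3 allows is 0.1, and the adjusted values over these 4 comparisons were 0.6, 0.9, 0.667 and 0.4. The sign of 2 of these differences depended on the setting. U1 minus input in naive brain went from -1674 to 1568 CPM with library size scaling and to 1286 without the 3 highest members. MECS minus naive in U1 RNA went from 885.8 to -1344 with library size scaling and to -687.7 without naive U1 1.

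Genes of the 3' end machinery and of the U1 snRNP were looked up among the members and their neighbours. Of 27 factors of 3' end processing and termination, 1 was a member, Cpsf4, a subunit that recognises the hexamer, and 2 were neighbours of members. Sft2d3, 1701 bases from Wdr33, the other hexamer-reading subunit, averaged 87.4 CPM and Cpsf4 averaged 32.2 CPM. Neither was called in any of the 5 comparisons by edgeR, with adjusted p from 0.255 to 0.997 for Sft2d3. Of 17 U1 proteins and associated factors 3 were members and 3 were neighbours of members. Among all features of that list, 1 was higher and 1 lower with U1 of 8 tested in each state. Prpf40b, the neighbour of Fmnl3, was the higher feature, at log2 1.24 (SE 0.21, edgeR adjusted p = 9.54e-05) in naive brain. In MECS brain Prpf40b stood at 1.17 (SE 0.20, edgeR adjusted p = 0.000302). Luc7l3, a U1-associated splicing factor, was lower with U1 in MECS brain (log2 -1.62, SE 0.39, edgeR adjusted p = 0.00792), a call lost without MECS U1 1 (0.053) or MECS input 3 (0.0839). In naive brain it stood at -0.13 (adjusted p = 0.913), and the interaction was -1.50 (SE 0.58, adjusted p = 0.997).

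Of 26 activity-induced genes 1 was a member, Egr2, an immediate early transcription factor 2323 bases from Ado, and Ado was itself a member facing it. Egr2 averaged 13.0 CPM, with 12.0, 17.8 and 12.3 CPM in naive input and 15.8, 16.5 and 16.5 in MECS input. Those groups overlap, and the log2 value of 0.19 (SE 0.38, edgeR adjusted p = 0.923) did not pass.

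A total of 331 members face a neighbour that has another feature inside it on the member's own strand, and 279 of these had enough counts to compare. The U1 over input difference of a member and of that inner feature correlated across features at r = 0.32 in naive and 0.24 in MECS brain. Under 0.5 kb, over 69 pairs, Pearson values were 0.50 and 0.34 and rank correlations 0.30 and 0.23 in naive and MECS brain. In each state 58.0% of these pairs had the same sign. Rank correlations were -0.12 and 0.07 at 0.5 to 1 kb and 0.28 and 0.32 at 1 to 2 kb. At 2 to 5 kb they were 0.17 and 0.13, so the values did not follow the order of distance. Over all 279 pairs, r for the MECS difference was 0.30 in input and 0.09 in U1 RNA. Against the feature of the neighbour itself, r over 252 pairs was 0.16, 0.14, -0.17 and 0.01. These are weak descriptions over features of the same libraries and depths. Lrrc26 shows how members and inner features can part: it had 174, 157 and 203 CPM in naive input and 190.1, 212 and 191 in naive U1, which overlap, while Grin1os, inside Grin1 on the same strand, had 4249 CPM ± 635 and 2732 ± 197 (SD, n = 3).

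At the edges of the rule, Kat7 and Tac4 face each other at 4994 bases and Aldh3a1 faces Aldh3a2 at 4996, just inside 5 kb. Spink4 and Bag1 at 5003 bases and Cpne7 at 5010 lay just outside. Itpa at 1.00 CPM and Cdc42ep5 and Pgap3 at 1.01 CPM lay just inside the level threshold, and Clgn at 0.982, Eif4a3 at 0.985 and Syce3 at 0.998 CPM just outside. Of all 1815 members, 1281 passed the filter on low counts in at least 1 comparison and 534 in none, so most of the members near 1 CPM carry no test.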

How the data were processed

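The values the authors deposited are raw counts, as whole numbers for each Ensembl identifier and library. Build mm10 and HISAT2 2.2.0, Salmon 1.4, StringTie 2.1.3, Trimmomatic 0.39, DESeq2 and FastQC are named, without their roles, per the submitters' processing notes. How reads were assigned to features (program, strand, annotation) is not stated in any source read. Per the labels' protocols, libraries came from a stranded total RNA kit with 100 bp single-end reads. Entries outside genes, 88.3 to 91.3% of listed reads for those in no feature, entered neither library sizes nor tests. Of 55471 identifiers 55230 matched GENCODE M21 (GRCm38), which gave strands, ends and distances (bases from one annotated 3' end to the other), and 241 did not. The members and the gene lists were chosen with earlier results of these data known.

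CPM are edgeR values with TMM factors over 12 libraries. Groups were compared over the whole table with edgeR 4.0.16 in R 4.3.3 (quasi-likelihood test, TMM, filterByExpr, Benjamini-Hochberg at 0.05), tested on simulated data. SEs are |log2 fold change| over the root of the F statistic. Alternatives were DESeq2 1.42.0, RLE or library size scaling, other filters, fits without mitochondrial, ribosomal or small RNA genes, a joint fit of 12 libraries, a replicate block, leaving out each library, and, chosen after seeing the data, only members with no same-strand overlap or gene in the gap. Differences of inner features used log2(CPM + 0.5), with both features at 2 CPM or more. Named members, excluding predicted, clone and Rik names, were up to 12 of the largest called changes per direction and comparison with groups that did not overlap, the 12 highest by CPM, the 3 highest per kb of exon in each distance class, up to 6 pairs, those at the thresholds, up to 3 per list, and their neighbours. Lists were 3' end factors, U1 proteins, activity-induced genes and markers of neurons, astrocytes, oligodendrocytes, microglia, endothelium, smooth muscle with pericytes, and blood. A U1 and an input library can share a title number, which was read as a shared lysate, though the titles do not state it. The main fits and the permutation tests of the sums did not use this pairing. Deviations of such paired libraries from the group means correlated at 0.02, -0.10 and -0.02 in naive and 0.11, 0.22 and 0.12 in MECS brain.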

Additional observations from a re-analysis of the deposited data

How the results depend on the processing

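The 3 members called after MECS in input became 1 in DESeq2, which gave no adjusted p for those 3, 5 with a filter of 1 CPM in 3 libraries, 6 with library size scaling, 6 with no filter, 7 with the replicate block and 1 among members with no same-strand overlap and no gene in the gap; leaving out 1 library gave 1 to 4. All features called there, 63, became 97, 129, 111 and 142 under that filter, library size scaling, no filter and the block, and 19 to 114 without 1 library. The 2 members called after MECS in U1 became 1 in DESeq2, 4, 7, 1 and 0 with the filter, no filter, the block and the restricted members, and 0 to 8 without 1 library; all features called, 43, became 113 in DESeq2, 88 in the fit of 12 libraries, 92 with the filter, 151 with no filter and 13 to 225 without 1 library. The 78 members called for U1 in naive brain became 46 in DESeq2 and 45 to 86 without 1 library, and all features, 1141, became 711 to 1254. Leaving out 1 library gave 39 to 54 members and 613 to 894 features in MECS brain. With the replicate block the 59 in MECS brain became 96 and all features, 918, became 1488. The interaction called 1 feature with the filter, library size scaling, no filter or the block, and 0 to 1 without 1 library. Within 2 kb there were 1116 members. The summed CPM difference of U1 libraries, MECS minus naive, turned from 885.8 to -1344 with library size scaling and to -687.7 without naive U1 1 (-687.7 to 1858 without 1 library). That of U1 minus input in naive brain turned from -1674 to 1568 with library size scaling and to 1286 without the 3 highest members. The causes were not tested. Between naive and MECS libraries equal numbers mark no shared animal: same-numbered deviations correlated at 0.07, -0.03 and -0.00 in input and 0.01, -0.01 and -0.10 in U1 RNA. With that block the call of Fam187a in U1 RNA was lost (adjusted p = 0.0684).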
